A study of Mus musculus with 16 samples.

Results

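Collagens, the triple-helical proteins of the extracellular matrix, were followed through 16 kidney RNA-seq libraries of mice with and without renal failure. Every protein-coding row of the tables whose gene name reads Col, digits, a, digits was taken, which gave 44 genes of 30277 rows (17903 of them protein-coding). They were grouped as 11 fibrillar collagens, 8 basement membrane collagens (Col4a1 to Col4a6, Col15a1 and Col18a1) and 25 other collagens. The mice carried the Kl mutation, a recessive allele of Klotho, bred onto the 129S1/SvlmJ strain by backcrossing. The groups were 5 male Kl/Kl libraries from mice of 44 to 47 days with renal failure, 3 male control libraries (+/Kl, 45 to 46 days), 4 female Kl/Kl libraries (45 to 54 days, renal failure) and 4 female control libraries (+/+, 45 to 49 days). Control mice had healthy renal function per the labels, and polyadenylated RNA was taken from perfused, frozen kidneys. The labels number the libraries as replicates and do not say that each is a separate mouse, so every p-value measures the spread between these libraries. Sex, table and control genotype cannot be told apart, because male controls were all +/Kl, female controls all +/+, and each sex has its own separately normalized table.

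Fibrillar collagens such as collagen I (Col1a1, Col1a2) and collagen III (Col3a1) form the fibres of interstitial matrix and of scars, and are made mainly by fibroblasts and smooth muscle. Collagen IV chains form the sheet under every epithelium and vessel. Col4a1 and Col4a2 are found in all basement membranes, while Col4a3, Col4a4 and Col4a5, made in the glomerulus by podocytes, form the network of the glomerular filter whose loss causes Alport syndrome.

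The results turn most on Col6a6 and Col19a1, so the 250 bases before each start are shown, together with the 71 bases between the oppositely directed genes Col4a4 and Col4a3, which share a promoter region. All are RefSeq sequences of build GRCm38.p6, given 5′ to 3′ on the minus strand, which is the coding strand of Col6a6, Col19a1 and Col4a4. Col6a6 lies at chr9:105828086-105828335, Col19a1 at chr1:24587438-24587687 and the shared stretch at chr1:82586850-82586920. Capitals mark a GC box (GGGCGG on either strand).
Col6a6: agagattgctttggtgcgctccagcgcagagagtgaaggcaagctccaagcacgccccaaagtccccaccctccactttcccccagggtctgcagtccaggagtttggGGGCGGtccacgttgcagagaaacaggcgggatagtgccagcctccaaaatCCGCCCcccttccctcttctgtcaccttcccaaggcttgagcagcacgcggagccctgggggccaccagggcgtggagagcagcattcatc
Col19a1: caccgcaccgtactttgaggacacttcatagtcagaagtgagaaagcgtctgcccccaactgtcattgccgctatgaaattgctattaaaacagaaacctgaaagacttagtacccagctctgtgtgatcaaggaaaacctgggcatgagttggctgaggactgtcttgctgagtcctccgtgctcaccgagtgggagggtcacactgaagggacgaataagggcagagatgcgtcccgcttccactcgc
Col4a4 and Col4a3: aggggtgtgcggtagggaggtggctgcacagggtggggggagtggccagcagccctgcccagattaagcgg
The motifs searched on both strands were the TATA box TATAAA, the CCAAT box CCAAT, the GC box GGGCGG and the steroid receptor element AGAACA, none of which overlaps another here. Col6a6 held a GC box at 142 to 137 bases before its start and a second, on the other strand, at 91 to 86 bases. The Col19a1 and Col4a4-Col4a3 stretches held none of the 4 motifs. Of 32851 RefSeq promoters cut to 250 bases, 12.4% held the TATA box, 33.8% the CCAAT box, 32.7% the GC box and 16.1% that element, and in 71 bases the shares were 4.41%, 13.3%, 20.7% and 4.51%. GC content was 62.4% for Col6a6, 52.0% for Col19a1 and 69.0% for the shared stretch, against medians over all promoters of 52.4% in 250 bases and 54.9% in 71 bases. A promoter was matched by symbol for 35 of the 44 genes. These windows follow RefSeq starts, which were not compared with the starts in the deposited mm39 tables.

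The targeted gene Kl followed the labels, at 0.0235 to 0.265 TPM in male Kl/Kl and 4.14 to 15.1 TPM in male controls, and at 0.0268 to 0.518 TPM in female Kl/Kl and 9.18 to 21.2 TPM in female controls. The lowest female Kl/Kl value was that of replicate 3, and the remaining ones were 0.092 to 0.518 TPM. In replicate 3 thick ascending limb and distal tubule markers summed to 1.96 TPM, against 289.0 to 462.0 TPM in the other female libraries. Its Kl level therefore cannot check its label. The libraries held 21.5 to 31.7 M estimated reads, of which collagen genes took 0.14% to 0.207% in 15 libraries and 0.361% in female Kl/Kl replicate 3. That library stood apart from the rest, with a median Spearman correlation to the others over genes of 0.53. Its proximal tubule markers, which define kidney tissue, summed to 0.749 TPM against 354.0 to 498.0 TPM in the other female libraries, while heart muscle markers summed to 1860.0 TPM against 0.344 to 1.81 TPM. Male control replicate 3 had 54.3% of its TPM on mitochondrial genes, against 35.4% to 44.8% in the other male libraries. Every result below is therefore given with these libraries and, where it differs, without the one concerned.

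The deposited TPM values were divided by genomic span, introns included, so that they compare libraries and not genes. Collagen genes have long spans (median 114388 bp, from 7106 to 468378 bp, against a median of 9858 bp over all rows), which makes their TPM low for the reads they hold. Levels of different genes were set side by side as estimated reads per kb of the longest coding transcript per M reads. On this scale Col4a3 led in male controls at 39.9 ± 4.96 (SD, n = 3), followed by Col4a1 at 35.3 ± 11.1, Col4a4 at 29.0 ± 5.37, Col27a1 at 26.8 ± 16.0, Col18a1 at 23.8 ± 6.78 and Col4a2 at 23.3 ± 8.27. The ranges of neighbours in this order overlapped down to Col4a2, whose lowest control stood at 14.4, above the highest for Col1a2 at 10.7. The range of Col27a1 reached down to 10.4 and so overlapped that of Col1a2. By mean, Col27a1, a fibrillar collagen of developing cartilage, was the only fibrillar gene among the leading 6. Female controls had the same 6 genes at the head, from Col4a3 at 41.8 ± 5.03 to Col27a1 at 23.0 ± 9.1 (SD, n = 4), although the 2 tables were scaled separately.

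**Figure D1:**
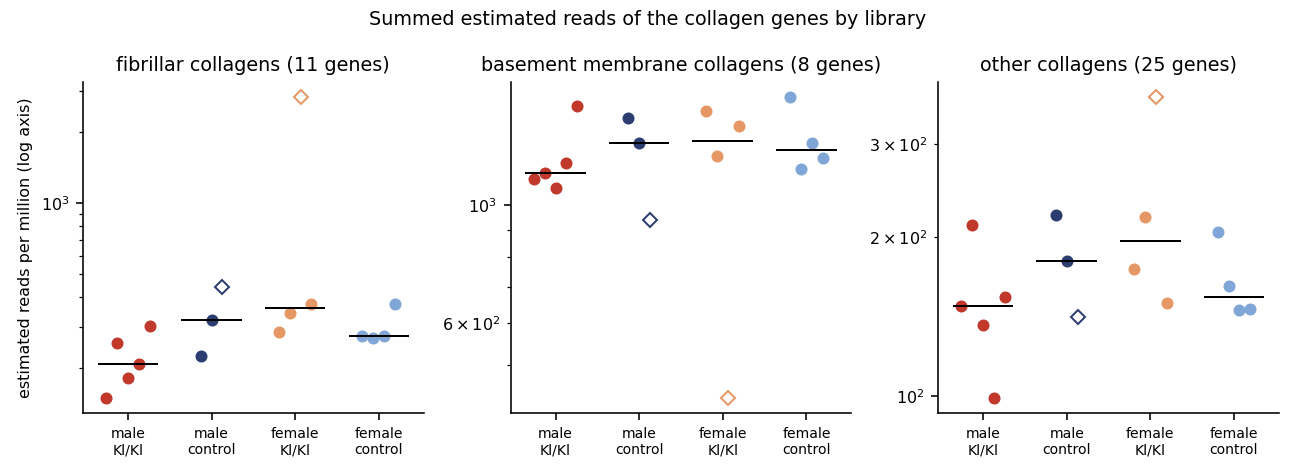
Summed estimated reads of the fibrillar, basement membrane and other collagen genes in each library, in estimated RPM on a log axis, with 1 point per library, a black line at each group's median and open diamonds for the libraries numbered 3 among female Kl/Kl and male controls. Basement membrane collagens held the most reads, at 937.0 to 1600.0 RPM, in every library except female Kl/Kl replicate 3, where they held 433.0 and fibrillar collagens 2810.0.

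By class, the basement membrane genes summed to 1080.0 to 1540.0 estimated RPM (reads per M of the library) in male Kl/Kl kidneys and 937.0 to 1460.0 in male controls. Fibrillar genes summed to 150.0 to 302.0 in male Kl/Kl and 225.0 to 441.0 in male controls. Much of this was Col27a1, with 1670.9 to 4617.8 estimated reads in male Kl/Kl and 2312.6 to 8092.0 in male controls. In male control replicate 3, the highest, it held 8092.0 of 11087 fibrillar reads. The fibrillar sums therefore do not stand for collagens I and III alone. The other collagens summed to 99.1 to 210.0 in male Kl/Kl and 141.0 to 220.0 in male controls, so the groups overlapped in each class, as the plot of class sums shows.

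In males 1 collagen gene, Col6a6, was called, at a near loss of its transcript in Kl/Kl. Changes were tested with limma on log2(TPM + 0.1) among genes averaging 0.1 TPM or more, and called at a Benjamini-Hochberg adjusted p under 0.05. In this fit 0 of the 4 fibrillar and 0 of the 7 basement membrane genes tested were called. A change on this scale understates that of a low gene. Col6a6 met the 0.1 TPM minimum only through the male controls, with means of 0.422 TPM there and 0.00524 TPM in male Kl/Kl. Of the 21 collagen genes tested 1 fell and 0 rose, where 5.22% of all genes tested passed, 3.2% higher and 2.03% lower. At an unadjusted p under 0.05 there were 4 of the 21, against 26.1% of all genes. The median log2 change was 0.08 over the 21 collagen genes and 0.27 over all genes. With median-of-ratios scaling the medians were -0.13 and 0.03, and the calls over all genes were 727 higher and 1076 lower in place of 556 and 352. Without male control replicate 3 there was again 1 of 20 collagen genes lower, where 7.07% of genes passed and 4.51% were lower. At an unadjusted p under 0.05 there were then 4, against 28.0% of genes, and the medians were -0.19 and 0.06.

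**Figure D2:**
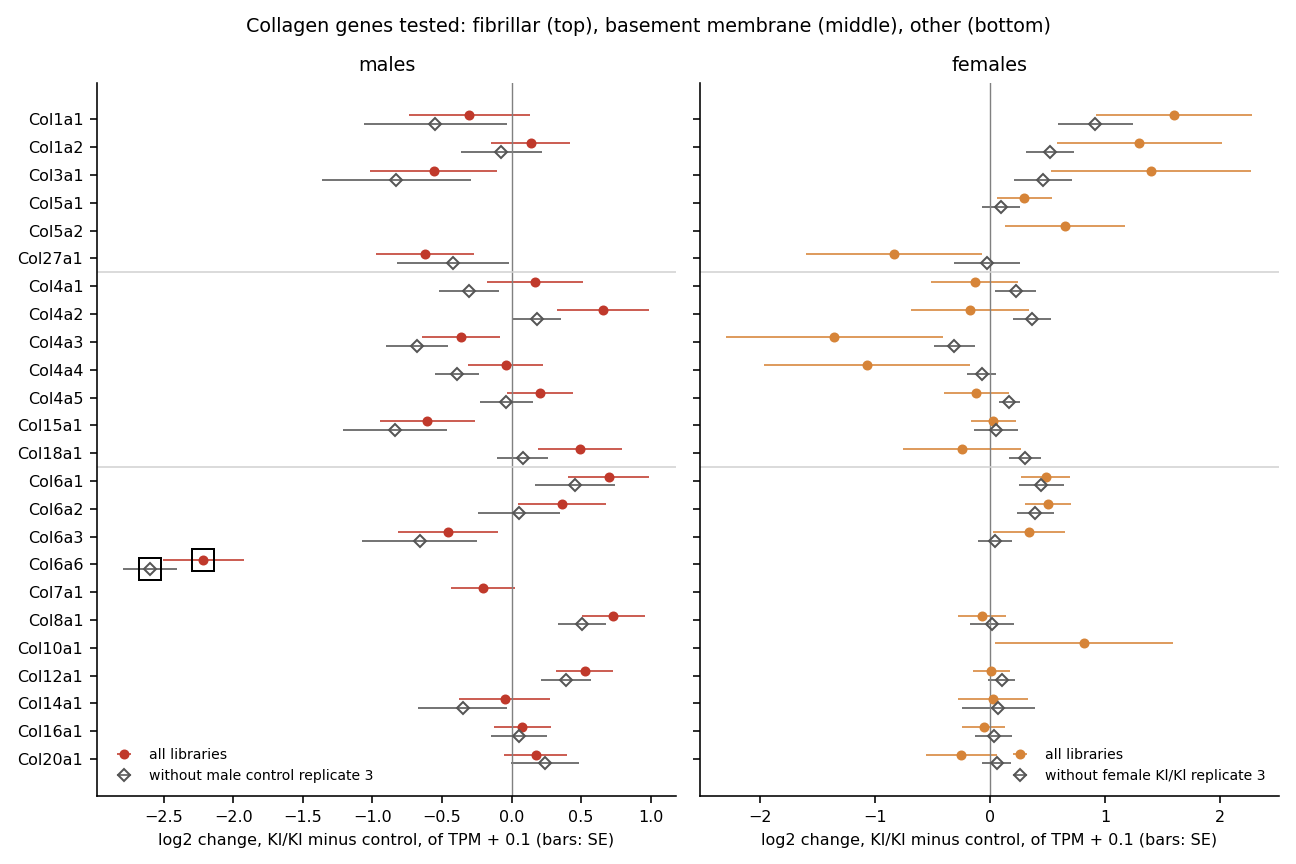
Log2 change of TPM + 0.1, Kl/Kl minus control, for each collagen gene tested, with males left and females right, bars for the standard error, filled circles for all libraries and open diamonds for the fit without male control replicate 3 or without female Kl/Kl replicate 3. Squares mark an adjusted p under 0.05, which Col6a6 alone reached, in males, at -2.22 with all libraries and -2.60 without male control replicate 3.

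Col6a6 encodes a chain of collagen VI related to the alpha 3 chain. Its gene lies at chr9:105565008-105705360 (mm39, minus strand). In male Kl/Kl kidneys it had 0.00244, 0.00224, 0.000725, 0.0028 and 0.018 TPM, against 0.602, 0.475 and 0.188 TPM in male controls. Every male Kl/Kl library lay below every male control, and the highest Kl/Kl library was replicate 5. In estimated reads this was 3.0 to 76.9 in male Kl/Kl and 944.4 to 2206.5 in male controls. The mean of 0.00524 ± 0.00718 TPM in male Kl/Kl (SD, n = 5) was 1.24% of the mean of 0.422 ± 0.212 TPM in male controls (SD, n = 3). The log2 change was -2.22 ± 0.29 (SE), with a limma adjusted p of 0.00283, and -2.60 ± 0.19, with an adjusted p of 0.000654, without male control replicate 3. Without male control replicate 1 the mean over the fit fell under 0.1 TPM and the gene was not tested. In these bulk libraries, fewer cells of a type and less RNA per cell cannot be told apart.

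In females the same gene was low in both groups. Female Kl/Kl libraries had 0.0183, 0.000702, 0.0611 and 0.00231 TPM, the highest being replicate 3, and female controls had 0.0135, 0.00688, 0.0145 and 0.00119 TPM. The groups overlapped, and the male controls stood above all 8 female libraries. Per kb of transcript Col6a6 ranked 9 of 44 in male controls, at 6.6 ± 2.19 (SD, n = 3), and 30 of 44 in female controls, at 0.134 ± 0.0911 (SD, n = 4), in tables that were scaled separately. A short unclassified gene on the opposite strand inside Col6a6, Gm38314, had 0.0 estimated reads in male Kl/Kl and 4.0 to 10.1 in male controls. Use of strand in the counting is not given in the sources used here, but these reads are few beside those of Col6a6.

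Col19a1, which encodes a collagen of the group that binds to fibril surfaces, showed the same pattern at a far lower level. It lies at chr1:24300971-24626554 (mm39, minus strand). Male Kl/Kl libraries had 3.0, 5.0, 1.0, 4.0 and 6.0 estimated reads, against 48.0, 57.0 and 55.0 in male controls. Female Kl/Kl libraries had 11.0, 2.0, 6.0 and 5.0 reads and female controls 4.0, 4.0, 2.0 and 6.0. The male controls were again high and the other 3 groups low. Its TPM, 0.000104 to 0.000606 in male Kl/Kl and 0.00471 to 0.00634 in male controls, is under the 0.1 TPM minimum. With no minimum, where 2.12% of all 30277 genes passed and 1.1% were lower, Col6a6 and Col19a1 were the 2 collagen genes called in males. Col19a1 then had a log2 change of -0.07 ± 0.01 and a limma adjusted p of 0.0116, a change made small by the pseudocount, while its mean in male Kl/Kl was 7.87% of that in male controls.

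To reach long genes with low TPM, estimated reads were recovered from the TPM values and tested with limma's voom among genes averaging 10 reads or more. Of 33 collagen genes tested in males 3 rose and 3 fell, 6 in all, where 18.4% of all genes passed, 13.3% higher and 5.11% lower. The 6 of 33 is near that background. The 3 that fell were Col6a6, Col19a1 and Col24a1, and the 3 that rose were Col8a1, Col12a1 and Col13a1. Col19a1 met the minimum of 10 reads only through the male controls, with at most 6.0 reads in male Kl/Kl.

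**Figure D3:**
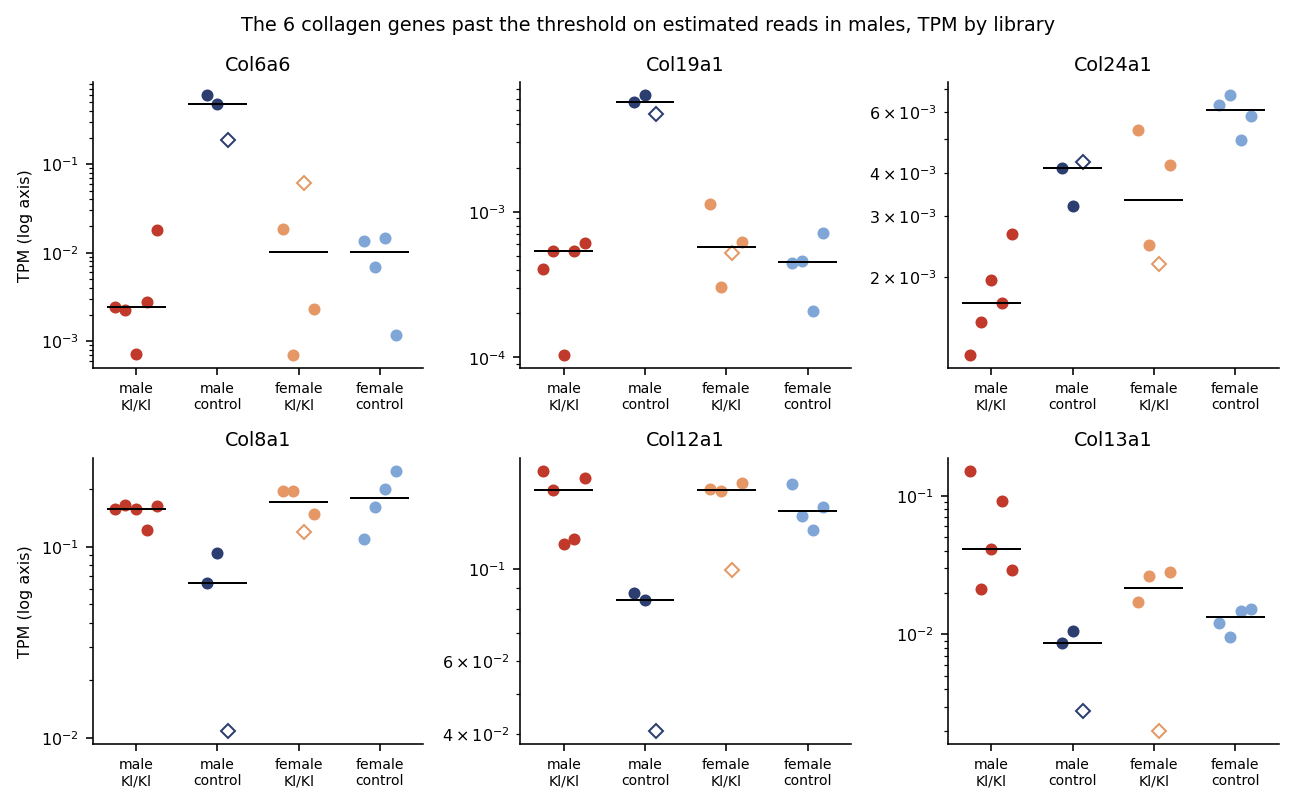
TPM on a log axis in each library for the 6 collagen genes called on estimated reads in males, with 1 point per library, a black line at each group's median and open diamonds for the libraries numbered 3 among female Kl/Kl and male controls. Col6a6 and Col19a1 are high in male controls (0.188 to 0.602 and 0.00471 to 0.00634 TPM) and low in the other 3 groups.

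Col8a1, a short-chain collagen of vessel walls and of Descemet's membrane of the eye, had 0.157, 0.166, 0.158, 0.122 and 0.163 TPM in male Kl/Kl and 0.0643, 0.0932 and 0.0109 TPM in male controls. All Kl/Kl libraries lay above all controls, with control replicate 3 the lowest. On TPM the log2 change was 0.73 ± 0.23 with a limma adjusted p of 0.0881, and on estimated reads 1.75 ± 0.41 with an adjusted p of 0.0165. The change on estimated reads was 1.07 ± 0.22 with an adjusted p of 0.0166 once male control replicate 3 was left out. Female Kl/Kl libraries had 0.12 to 0.196 TPM and female controls 0.11 to 0.249 TPM, which overlap.

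Col12a1, a collagen that bridges fibrils to other matrix proteins, had 0.172, 0.155, 0.115, 0.118 and 0.165 TPM in male Kl/Kl and 0.0875, 0.084 and 0.0407 TPM in male controls. The groups did not overlap. The log2 change was 0.53 ± 0.21 on TPM, with a limma adjusted p of 0.148, and 0.96 ± 0.20 on estimated reads, with an adjusted p of 0.0107. On estimated reads without male control replicate 3 it was 0.83 ± 0.21, with an adjusted p of 0.0304. In females the levels were 0.0991 to 0.161 TPM in Kl/Kl and 0.124 to 0.16 TPM in controls.

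Col13a1, a transmembrane collagen found at cell contacts, had 480.7, 84.9, 170.9, 295.8 and 123.9 estimated reads in male Kl/Kl and 32.0, 41.0 and 14.0 in male controls. The Kl/Kl libraries were all higher and spread widely. Its log2 change on estimated reads was 2.79 ± 0.76 with a limma adjusted p of 0.0292, and 2.44 ± 0.90 with an adjusted p of 0.0915 without male control replicate 3. Col24a1, a minor fibrillar collagen, had 7.0, 11.0, 15.0, 10.0 and 21.0 reads in male Kl/Kl and 28.0, 23.0 and 40.0 in male controls. These groups did not overlap either. Its log2 change was -1.21 ± 0.37 with an adjusted p of 0.0424, and -0.93 ± 0.36 with an adjusted p of 0.103 without that library.

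Counted by ranges, 2 of the 21 genes (Col8a1 and Col12a1) had every male Kl/Kl library above every control, where 19.0% of genes tested did, and 1 (Col6a6) had every one below, where 3.99% did. Each of these genes met the 0.1 TPM minimum only through its high group. Col8a1 and Col12a1 had means of 0.0561 and 0.0707 TPM in male controls, and Col6a6 0.00524 TPM in male Kl/Kl. Over all 44 collagen genes 5 lay above (Col4a6, Col8a1, Col12a1, Col13a1, Col17a1), against 14.8% of the table, and 4 below (Col6a4, Col6a6, Col19a1, Col24a1), against 3.58%. Without male control replicate 3, 2 of 20 lay above and 3 below (Col4a3, Col4a4, Col6a6), against 20.8% and 17.7% of genes tested. Over all 44 the counts were then 6 and 8, against 16.6% and 13.2%. These shares are descriptions, and several of these genes rest on a few reads: Col6a4 had at most 6.0 in any male library.

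Beside these male changes, summed markers of some cell types were higher in male Kl/Kl. In the same fit 72.61% of all genes had a log2 change above 0 and 3.2% were called higher. Fibroblast and myofibroblast markers summed to 5.64 to 11.7 TPM in male Kl/Kl and 3.47 to 5.39 TPM in male controls, with 0 of 5 tested called. Macrophage markers summed to 13.8 to 21.5 TPM in male Kl/Kl and 5.52 to 8.98 TPM in male controls, with 3 of 4 tested called (Cd68, Lyz2, Cd14). The remaining one, Csf1r, a receptor of macrophages, had 0.879 to 1.87 TPM in male Kl/Kl and 1.91 to 3.18 TPM in male controls, lower in every Kl/Kl library, with a limma adjusted p of 0.0991. Podocyte markers summed to 13.5 to 17.5 TPM in male Kl/Kl and 5.47 to 11.0 TPM in male controls, with 1 of 5 called (Wt1), and collecting duct markers to 136.0 to 226.0 TPM against 54.6 to 93.7 TPM, with 2 of 4 called (Aqp2, Scnn1g). The sums of the other marker lists overlapped, with proximal tubule at 202.0 to 409.0 TPM in male Kl/Kl and 248.0 to 493.0 TPM in male controls. Without male control replicate 3, proximal tubule controls stood at 454.0 to 493.0 TPM, above every male Kl/Kl library. Within that list Slc5a12 went the other way, at 17.5 to 29.7 TPM in male Kl/Kl and 11.1 and 7.05 TPM in those controls. Heart muscle sums then also separated, at 0.673 to 1.19 TPM in male Kl/Kl and 0.335 to 0.375 TPM in male controls. The part of these cell types in the collagen values was not tested.

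The fibrillar collagens of scar tissue did not pass the test in males. Col1a1 had 0.364, 1.3, 0.593, 0.49 and 1.54 TPM in male Kl/Kl and 1.41, 0.915 and 0.642 TPM in male controls, and Kl/Kl replicates 2 and 5 were the high ones. Col1a2 had 1.24, 2.21, 1.13, 1.06 and 1.78 TPM in male Kl/Kl and 1.74, 1.3 and 0.936 TPM in male controls. Col3a1 had 0.275, 1.16, 0.428, 0.306 and 1.08 TPM in male Kl/Kl and 1.27, 0.881 and 0.567 TPM in male controls. In all 3 genes the groups overlapped, and the same Kl/Kl libraries, replicates 2 and 5, stood above the other 3. The log2 changes were -0.30 ± 0.44 for Col1a1, 0.14 ± 0.29 for Col1a2 and -0.56 ± 0.46 for Col3a1, with limma adjusted p of 0.67, 0.775 and 0.44. Over the 4 fibrillar genes tested the median was -0.43, and -0.49 without male control replicate 3.

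In the basement membrane class 0 of 7 genes tested passed in males, 0 of them at an unadjusted p under 0.05 with limma, and the median log2 change was 0.17 with all libraries and -0.31 without male control replicate 3, a change of sign. Once that library was left out, 2 of the 7 (Col4a3 and Col4a4) had an unadjusted p under 0.05, against the 28.0% of genes given above. On estimated reads, 4 of 8 did (Col4a2, Col4a3, Col4a6 and Col15a1), against 35.8% of genes, and 0 were called. Col4a1 had 2.02, 2.08, 1.62, 2.13 and 3.0 TPM in male Kl/Kl and 2.86, 2.47 and 0.929 TPM in male controls. Col4a2 had 1.76, 1.5, 1.37, 1.7 and 2.02 TPM in male Kl/Kl and 1.62, 1.29 and 0.478 TPM in male controls. Control replicate 3 was the lowest male library for both of these broadly used chains, and the groups overlapped. The starts of the pair overlap by 23 bp on chromosome 8 (mm39), so reads there cannot be given to one or the other without strand.

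Of the chains of the glomerular filter, Col4a3 and Col4a4 were lower in male Kl/Kl on average, within the spread. Col4a3 had 1.63, 1.48, 1.58, 2.08 and 2.64 TPM in male Kl/Kl and 3.01, 2.99 and 1.52 TPM in male controls. Col4a4 had 2.14, 1.58, 1.75, 2.11 and 2.16 TPM in male Kl/Kl and 2.77, 2.39 and 1.19 TPM in male controls. Control replicates 1 and 2 lay above every Kl/Kl library for both genes and control replicate 3 did not. The log2 change of Col4a3 was -0.36 ± 0.28 with a limma adjusted p of 0.417, and -0.68 ± 0.22 with an adjusted p of 0.103 without male control replicate 3. Col4a3 was called in 2 of 34 alternatives, both with array weights, at an adjusted p of 0.0208 with all libraries and 0.0447 without that control, where 11.9% and 9.48% of genes were called lower. Over the 34 its adjusted p ran from 0.0208 to 0.681. The log2 change of Col4a4 was -0.04 ± 0.27 with an adjusted p of 0.932, and -0.39 ± 0.16 with an adjusted p of 0.157 without it. The podocyte marker sums given above were higher in male Kl/Kl.

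Col4a5, the X-linked partner of these chains, had 0.231, 0.377, 0.316, 0.306 and 0.415 TPM in male Kl/Kl and 0.32, 0.35 and 0.163 TPM in male controls. Col4a6, found in Bowman's capsule and smooth muscle, had 0.0166, 0.0273, 0.0258, 0.0216 and 0.024 TPM in male Kl/Kl and 0.0159, 0.0117 and 0.0126 TPM in male controls, with no overlap. On estimated reads its log2 change was 0.67 ± 0.25 with a limma adjusted p of 0.0864. Col15a1 and Col18a1 are basement membrane collagens that carry sugar chains, and a fragment of Col18a1 is endostatin. Col15a1 had 0.0407, 0.159, 0.062, 0.0353 and 0.207 TPM in male Kl/Kl and 0.288, 0.197 and 0.109 TPM in male controls. Col18a1 had 1.38, 1.82, 1.26, 1.58 and 1.88 TPM in male Kl/Kl and 1.64, 1.33 and 0.57 TPM in male controls. The groups overlapped for both, with limma adjusted p of 0.28 and 0.322. The span of Col18a1 overlaps that of Slc19a1 on the opposite strand, which had 4206.3 to 6519.4 estimated reads in male Kl/Kl and 1823.0 to 3598.8 in male controls. Reads in the shared stretch cannot be told apart without strand, and the length of that stretch was not measured.

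In females no collagen gene passed, with or without replicate 3. Of 22 tested 0 were called by limma, where 0.0% of all genes were, and 2 had an unadjusted p under 0.05 (Col1a1 and Col6a2), against 4.27% of genes. On estimated reads limma's voom called 0 of 38, against 0.0% of genes. Without female Kl/Kl replicate 3, 0 of 20 were called, against 0.0% of genes, and 3 (Col1a1, Col1a2, Col6a2) had an unadjusted p under 0.05, against 14.8%. The median log2 change was 0.02 over the collagen genes and -0.19 over all genes, and 0.10 and 0.08 without that library. Every female Kl/Kl library lay above every control in 0 of 22 genes and below in 0, against 3.5% and 3.04% of genes. Over all 44, 2 lay above (Col9a3 and Col17a1) and 0 below, against 3.16% and 2.56% of the table. Without female Kl/Kl replicate 3, 1 of 20 lay above (Col4a5) and 0 below, against 10.1% and 3.42%. Over all 44 the counts were then 6 and 0, against 8.34% and 2.97%.

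Col17a1, a transmembrane collagen of the hemidesmosomes that anchor epithelia, was higher in every Kl/Kl library than in every control of its own sex, on few reads. Male Kl/Kl libraries had 7.0, 18.0, 4.0, 6.0 and 16.0 estimated reads and male controls 3.0, 1.0 and 2.0. Female Kl/Kl libraries had 8.0, 15.0, 45.0 and 25.0 reads, the highest in replicate 3, and female controls 3.0, 6.0, 7.0 and 3.0. Of all genes, 14.8% had every Kl/Kl library above every control in males and 3.16% in females. The share that did so in both sexes was not counted. Col17a1 was chosen after its values were seen, and its TPM is under the minimum for the test.

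Collagens I and III were higher on average in female Kl/Kl, short of the threshold. Col1a1 had 1.14, 1.58, 11.1 and 2.17 TPM in female Kl/Kl and 1.45, 0.649, 0.57 and 0.705 TPM in female controls. Col1a2 had 1.77, 2.56, 19.4 and 2.26 TPM in female Kl/Kl and 2.16, 1.29, 1.21 and 1.41 TPM in female controls. Col3a1 had 1.01, 1.13, 17.4 and 1.44 TPM in female Kl/Kl and 1.38, 0.774, 0.614 and 0.703 TPM in female controls. Replicate 3 was far above all others in each, and control replicate 1 was the highest control and overlapped the remaining Kl/Kl libraries. With all libraries the log2 changes were 1.60 ± 0.68, 1.30 ± 0.72 and 1.41 ± 0.87, each with a limma adjusted p of 0.769. Without replicate 3 they were 0.92 ± 0.32, 0.53 ± 0.21 and 0.46 ± 0.25, with adjusted p of 0.274, 0.312 and 0.428. Fibroblast and myofibroblast markers then summed to 6.32 to 9.97 TPM in female Kl/Kl and 5.11 to 7.71 TPM in female controls, and macrophage markers to 10.5 to 33.7 TPM and 8.76 to 14.0 TPM. Their part in these values was not tested.

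Among female basement membrane genes 0 of 7 passed, 0 of them at an unadjusted p under 0.05 with limma, and the median log2 change was -0.17 with all libraries and 0.17 without replicate 3, so 1 library set its sign. Col4a1 had 2.98, 2.38, 0.928 and 2.66 TPM in female Kl/Kl and 3.15, 1.81, 2.25 and 2.04 TPM in female controls. Col4a2 had 1.9, 1.63, 0.299 and 1.57 TPM in female Kl/Kl and 1.73, 1.05, 1.33 and 1.15 TPM in female controls. In both genes replicate 3 was the lowest library and the remaining Kl/Kl libraries overlapped the controls.
Col4a3 had 2.36, 1.75, 0.0317 and 2.8 TPM in female Kl/Kl and 3.39, 2.35, 2.89 and 2.77 TPM in female controls. Col4a4 had 2.25, 1.76, 0.0356 and 2.21 TPM in female Kl/Kl and 2.59, 1.92, 2.01 and 2.19 TPM in female controls. Both filter chains were near absent in replicate 3. Without it the log2 changes were -0.31 ± 0.17 for Col4a3 and -0.07 ± 0.13 for Col4a4, with limma adjusted p of 0.441 and 0.823.
Col4a5 had 0.417, 0.42, 0.134 and 0.415 TPM in female Kl/Kl and 0.371, 0.333, 0.331 and 0.409 TPM in female controls. Col4a6 had 0.0247, 0.0227, 0.0492 and 0.035 TPM in female Kl/Kl and 0.0225, 0.0208, 0.0253 and 0.0265 TPM in female controls. Replicate 3 was the lowest library for Col4a5 and the highest for Col4a6. Col15a1 had 0.257, 0.184, 0.199 and 0.22 TPM in female Kl/Kl and 0.315, 0.182, 0.199 and 0.154 TPM in female controls. Col18a1 had 2.05, 2.04, 0.376 and 2.12 TPM in female Kl/Kl and 2.16, 1.52, 1.63 and 1.39 TPM in female controls. Col15a1 overlapped throughout, and for Col18a1 replicate 3 was again the lowest.

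Female Kl/Kl replicate 3 also differed in which collagens it held. Of the 44 genes 19 lay above, 16 below and 9 within the range of the other 7 female libraries. Of all genes 19.8% lay above and 60.6% below, so that leaving the range was common to most genes of that library and the number of collagen genes that did so is no finding on collagens. Among fibrillar genes 7 were above and 2 below, and among basement membrane genes 1 was above and 6 below. Col3a1 was 17.3 times, Col1a2 and Col5a2 11.0 times and Col1a1 9.75 times the median of the other 7, while Col4a3 was at 0.0114 and Col4a4 at 0.0162 of it. Several collagens of cartilage, close to 0 elsewhere, were above that range. Col2a1 had 102.9 estimated reads against 0.0 to 4.0 in the other 7, Col10a1, a marker of growth-plate cartilage, 267.9 against 0.0 to 4.0, and Col9a2 40.0 against 0.0 to 2.0. Col9a1 had 15.0 reads against 0.0 to 1.0, Col9a3 32.8 against 3.0 to 10.0 and Col11a1 97.9 against 9.0 to 44.0. Not every cartilage collagen lay above the range: Col11a2 had 31.0 reads, within the range of 17.0 to 43.0, and Col27a1 0.065 TPM, below all others and 0.0459 of their median. Cartilage markers summed to 2.65 TPM, with all 8 at 10 reads or more, against 0.0401 to 0.196 TPM, with 2 to 4 of the 8 at 0 reads in each of the other female libraries. Airway markers summed to 1060.0 TPM against 0.102 to 0.41 TPM, and adipocyte markers to 1190.0 TPM against 8.91 to 21.2 TPM. Fibroblast and myofibroblast markers summed to 185.0 TPM against 5.11 to 9.97 TPM, but not all of them were high. Acta2, at 97.3 TPM, Dcn, Lum, Postn and Meg3 were above the range, Pdgfra within it, and Pdgfrb and Gli1 below it. Mesangium and smooth muscle markers summed to 251.0 TPM against 13.9 to 28.0 TPM, with Tagln at 229.0 TPM and Ren1 below the range. The part of these cell types in its collagen values was not tested.

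**Figure D4:**
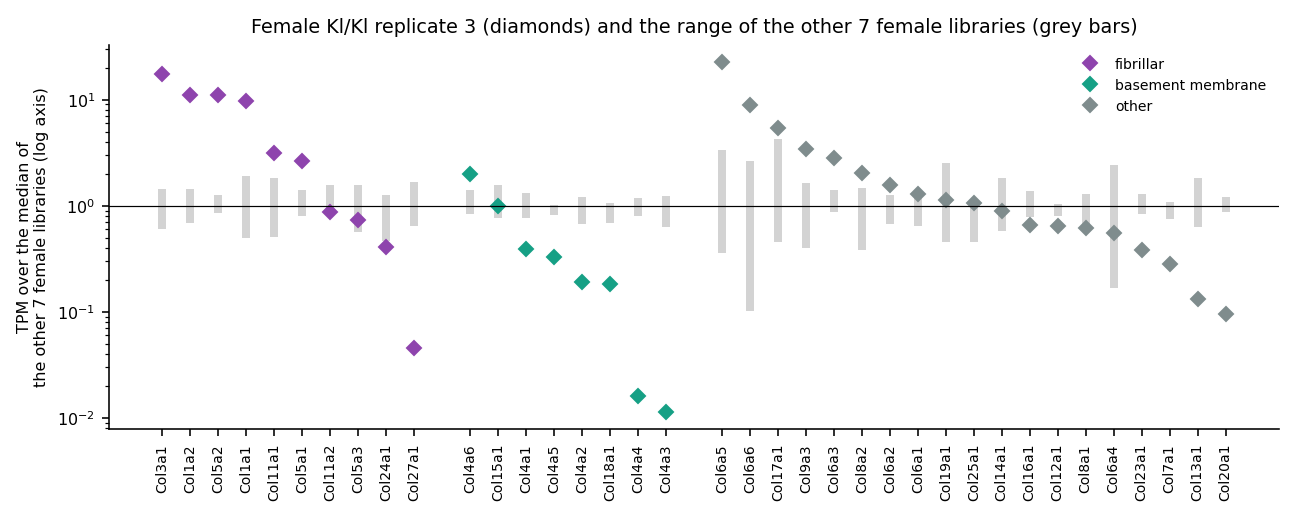
TPM of each collagen gene in female Kl/Kl replicate 3 over the median of the other 7 female libraries, on a log axis, coloured by class and sorted within it, with grey bars for the range of those 7 libraries on the same scale. Col3a1 stands highest among fibrillar genes at 17.3 and Col4a3 lowest of those shown at 0.0114, and genes with under 3 estimated reads in that library or as the median of the others have no ratio.

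Whether the changes differed between the sexes was tested in 1 model of all 4 groups, as the female change minus the male change. Of 19 collagen genes tested 0 were called, where 0.0655% of genes were, and 3 had an unadjusted p under 0.05 in limma, where 8.68% of genes did. With the 2 libraries named above left out, 0 were called, where 2.13% of genes were, and 1 had an unadjusted p under 0.05, where 17.1% did. On estimated reads limma's voom called 0 of 32, against 0.212% of genes. With both libraries left out it called 1 of 32, Col6a6, at 6.46 ± 1.33 and an adjusted p of 0.0199, against 2.77% of genes. The median difference over the 4 fibrillar genes tested was 1.53, and 0.94 without both libraries. For Col1a1 it was 1.90 ± 0.86 with a limma adjusted p of 0.524, and 1.47 ± 0.65 with an adjusted p of 0.274 without both. With no minimum level 2 collagen genes passed, Col6a6 and Col19a1, where 0.4% of genes did. The difference was 2.34 ± 0.32 for Col6a6 with an adjusted p of 0.00245, and 0.07 ± 0.01 for Col19a1 with an adjusted p of 0.0321. Without both libraries they were 2.57 and 0.08, with adjusted p of 6.64e-07 and 0.00224. Both genes were high in male controls and in no other group, and male and female controls differed in sex, table and genotype at once.

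Ratios between chains within a library do not depend on its scaling, and 7 pairs of chains that assemble or are expressed together were compared per kb of transcript. The pairs were chosen after gene values were seen. No other gene pairs were compared, so a count of ratios that do not overlap has no background share here. In males 3 ratios were lower in every Kl/Kl library than in every control. Col4a3 over Col4a1, the filter chain over the general chain, was 0.651 to 0.893 in male Kl/Kl and 0.963 to 1.49 in male controls. Col4a1 over Col4a2 was 0.939 to 1.21 in male Kl/Kl and 1.44 to 1.59 in male controls. Col6a3 over Col6a1, chains of collagen VI, the beaded-filament collagen, was 0.0751 to 0.341 in male Kl/Kl and 0.531 to 0.611 in male controls. Each had a two-sided exact permutation p of 0.0357, the smallest that 5 against 3 libraries can give, and 0.0833 after adjustment over the 7 pairs, which misses the threshold. Without male control replicate 3 these 3 ratios still did not overlap, nor did those of Col3a1 over Col1a2 and Col6a1 over Col6a2, and the smallest possible exact p is 0.0952.

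In females the same 3 ratios were lower in Kl/Kl once replicate 3 was left out. Col4a3 over Col4a1 was 0.672 to 0.964 in female Kl/Kl and 0.985 to 1.24 in female controls, Col4a1 over Col4a2 was 1.2 to 1.38 and 1.39 to 1.48, and Col6a3 over Col6a1 was 0.377 to 0.487 and 0.559 to 0.624. The exact permutation p of each was 0.0571, the smallest that 3 against 4 libraries can give, and 0.133 adjusted. With replicate 3 included only Col4a3 over Col4a1 kept the groups apart, from 0.0312 to 0.964 in female Kl/Kl, with an exact p of 0.0286 and an adjusted 0.2. Col1a1 over Col1a2, the chains that assemble as collagen I, overlapped in both sexes, at 0.121 to 0.358 in male Kl/Kl and 0.283 to 0.336 in male controls.

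**Figure D5:**
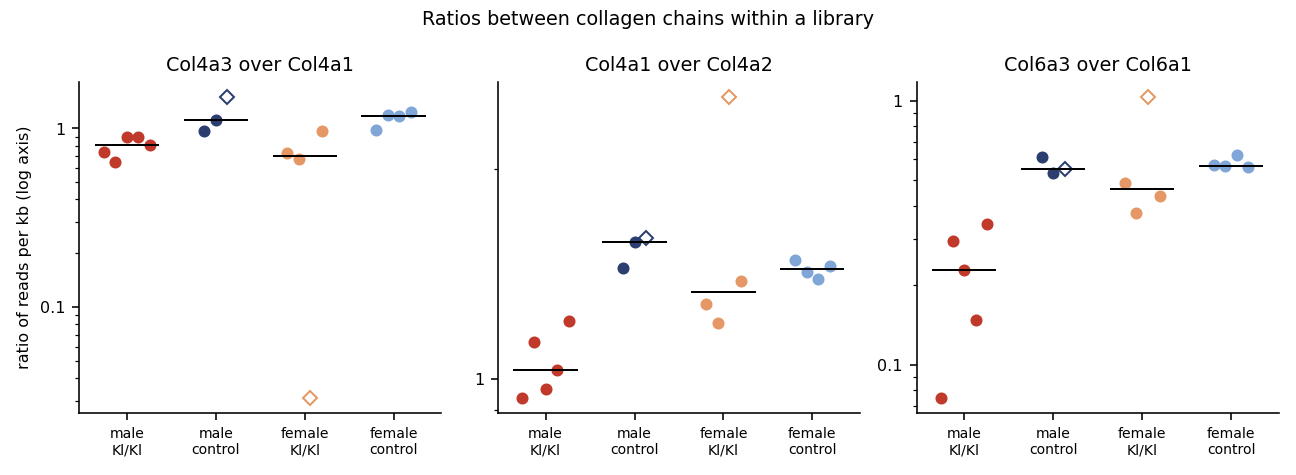
Ratio of estimated reads per kb of transcript between collagen chains within each library, on a log axis, with 1 point per library, a black line at each group's median and open diamonds for the libraries numbered 3 among female Kl/Kl and male controls. In males the Kl/Kl points for Col4a3 over Col4a1 (0.651 to 0.893) lie below all control points (0.963 to 1.49).

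Because collagen transcripts are long, the changes were also read against genes of like length. In males the 6 collagen genes tested with a coding transcript above 8000 nt had a median log2 change of -0.29, while all genes of that length had 0.36. Between 6000 and 8000 nt the medians were 0.17 over 5 collagen genes and 0.36 over all genes, and between 4000 and 6000 nt 0.16 over 10 collagen genes and 0.33 over all genes. Without male control replicate 3 they were -0.66 over 5 genes and 0.08 above 8000 nt, -0.31 and 0.08 in the middle bin and 0.05 and 0.06 in the lowest. The gap between collagen genes and others thus varied with the bin and with that library. In females without Kl/Kl replicate 3 the medians were 0.04 over 5 collagen genes and 0.07 over all genes above 8000 nt, 0.17 and 0.07 in the middle bin and 0.35 and 0.09 in the lowest. No test was made of these medians.

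Genes that fold, process, bind and degrade collagen were counted in the same fits, against the 3.2% of all genes that were higher and 2.03% that were lower in males. In males, of 18 tested genes of collagen folding and modification 1 rose, P3h4, a partner of the lysyl hydroxylases, at 1.62 to 5.18 TPM in Kl/Kl and 0.485 to 0.744 TPM in controls (log2 change 1.68 ± 0.37, limma adjusted p 0.0325). The list's median was 0.01. Without male control replicate 3 it was -0.20, P3h4 was not called (adjusted p 0.0743), and 3 of 19 fell: Serpinh1, the collagen chaperone HSP47, Crtap, of the prolyl 3-hydroxylation complex, and P4ha1, a prolyl 4-hydroxylase subunit, against 4.51% of all genes lower. Serpinh1 had 4.85 to 8.49 TPM in Kl/Kl and 21.7 and 13.2 TPM in the 2 remaining controls, with a log2 change of -1.45 ± 0.27 and an adjusted p of 0.0252. Control replicate 3 had 6.81 TPM, and with it the adjusted p was 0.113. Crtap and P4ha1 had changes of -1.21 and -1.12, with adjusted p of 0.0261 and 0.0216. With all libraries kept, these 3 genes were also called with median-of-ratios scaling, voom and array weights, where 6.2%, 5.11% and 11.9% of genes were lower.

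Of 7 tested genes of propeptide cleavage and cross-linking 1 rose, Lox, the enzyme that cross-links collagen and elastin. It had 4.62, 1.61, 1.23, 3.24 and 1.19 TPM in male Kl/Kl and 0.363, 0.333 and 0.194 TPM in male controls, with a log2 change of 2.47 ± 0.44 and a limma adjusted p of 0.0136. Of 8 tested genes of collagen breakdown and its inhibitors 1 rose, Mmp14, a membrane-bound collagenase. It had 2.85, 1.47, 1.12, 2.65 and 1.48 TPM in male Kl/Kl and 0.443, 0.455 and 0.18 TPM in male controls, with a log2 change of 2.11 ± 0.35 and an adjusted p of 0.0102. Neither gene's groups overlapped, and both passed without male control replicate 3, with adjusted p of 0.0466 and 0.03. Timp3, a metalloproteinase inhibitor, was called in that fit (-0.77 ± 0.18, adjusted p 0.0469), and with all libraries had an adjusted p of 0.37.

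Among the basement membrane partners Lamb2, a laminin chain of the glomerular filter, rose in males. It had 9.33 to 14.0 TPM in Kl/Kl and 4.83 to 7.58 TPM in controls (log2 change 0.92 ± 0.22, limma adjusted p 0.045, and 0.0539 without male control replicate 3). Of 10 tested fibril-binding proteins 1 rose, Thbs1, a matrix protein that activates TGF-beta, at 4.84 to 6.93 TPM in Kl/Kl and 1.83 to 3.65 TPM in controls (1.03 ± 0.25, adjusted p 0.0456). Of 34 alternatives in males, the call was lost in 18 for P3h4, 17 for Lamb2, 13 for Thbs1, 6 for Lox and 3 for Mmp14. Of 3 tested collagen receptors and 5 TGF-beta ligands and receptors 0 passed, with the receptor subunit Itgb1 at 5.88 to 7.1 TPM in Kl/Kl and 2.57 to 7.0 TPM in controls. The medians of these lists lay between 0.32 and 0.72, outside folding and modification, against 0.27 over all genes. In females 0 genes of any of these lists passed, with or without replicate 3, where 0.0% of all genes did.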

How the data were processed

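The authors deposited TPM values in 2 tables, 1 per sex, that hold 8 libraries each and list the same 30277 genes. The submitters' processing notes name mm39 and Partek. Aligner, counting and use of strand: not given in the sources used here. Per the labels, libraries were made with a directional kit. Column totals are equal within a table, no value is 0, and low values are whole reads over genomic span plus an offset of 0.0001 read: 97.0% of male and 97.7% of female collagen values of 0.5 to 20 reads came out whole within 0.05. These estimated reads (21.5 to 31.7 M per library) are not counts, so precision is given as spread between libraries.

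Kl/Kl was compared with control within each table, and the changes between sexes in a 4-group model, with limma 3.58.1 (R 4.3.3, linear fits and trended empirical Bayes) on log2(TPM + 0.1), a mean of at least 0.1 TPM and Benjamini-Hochberg adjustment over all genes tested. Ratios were tested by exact permutation (SciPy 1.17.1, Python 3.11.15). The limma fits were tested on simulated data. Alternatives were other pseudocounts, minimums and scalings, voom, array weights, a robust fit, replicate block, age, library name prefix, and leaving out each library. Those that also leave out male control replicate 3 or female Kl/Kl replicate 3 were added after seeing the data.

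All members are counted. Values in every library are given for those past the threshold in the fits with or without these 2 libraries, for those called on estimated reads, and for Col1a1, Col1a2, Col3a1, Col4a1 to Col4a6, Col15a1 and Col18a1, and of each pathway list for up to 4 genes called. The members and lists were chosen with earlier results of these data known. The result of 1 gene of the pathway lists is left out and not reported here.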

Additional observations from a re-analysis of the deposited data

Results flagged for a closer look

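In 45 groups of 4 or 5 libraries, 10 had a library set apart from the others by more than a gap test allows at the 95% level, and chance gives about 1 in 20. Female Kl/Kl replicate 3 accounted for 6 of the 10. It had 11.1 TPM of Col1a1, 19.4 TPM of Col1a2 and 17.4 TPM of Col3a1, above the other female Kl/Kl libraries, and 0.134 TPM of Col4a5 and 0.376 TPM of Col18a1, below them. Its fibrillar collagens summed to 2810.0 estimated RPM. Male Kl/Kl replicate 5 had 0.018 TPM of Col6a6, above the other male Kl/Kl libraries, and basement membrane collagens at 1540.0 estimated RPM. Female control replicate 1 had 1.45 TPM of Col1a1, and female control replicate 4 had fibrillar collagens at 373.0 estimated RPM, each above the other female controls. In female control replicate 4, Col27a1 held 7390.0 of the 10366 fibrillar reads, and Col1a1, Col1a2 and Col3a1 were not above the other female controls.

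The change between Kl/Kl and control differed between the sexes for Col6a6 and Col19a1 when no minimum level was set, in the limma model of all 4 groups. The female minus male difference on log2(TPM + 0.1) was 2.336 for Col6a6 and 0.07452 for Col19a1, and 2.569 and 0.08097 with female Kl/Kl replicate 3 left out along with male control replicate 3. Male controls were +/Kl and female controls +/+, and each sex has its own table, so sex, genotype and table cannot be told apart.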

How the results depend on the processing

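The number of collagen genes called in males was 1 with all libraries. It was 0 with a mean of at least 1 TPM, 0 with log2(TPM + 1) and that minimum, 2 with no filter, 6 with voom on estimated reads and 5 with array weights. Leaving out each library in turn gave 0 to 1, the 0 without male control replicate 1. With male control replicate 3 left out as well, the same settings gave 0, 0, 2, 4 and 3. In females it was 0 under each alternative run. For the difference between the sexes it was 0 with all libraries and 2 with no filter, and with the female Kl/Kl and male control libraries numbered 3 left out, 2 with no filter and 1 with voom. Col6a6 in males could be tested in 29 alternatives, was lower in each, and was called in 27. No collagen gene called changed direction. Over all genes the calls were 908 in males, and 217 to 4708 under the planned settings, 301 to 1236 with 1 library left out and 30 to 3274 with control replicate 3 also left out. In females they were 0, and 0 to 41 under the planned settings. For the difference they were 11, and 2 to 1300. The cause of these shifts was not tested.

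Replicate numbers are shared between groups. Same-numbered libraries had correlations of their deviations from -0.137 to 0.027 in males and -0.053 to 0.151 in females. Libraries of unlike number had -0.147 to 0.176 in males and -0.146 to 0.097 in females. Kl/Kl and control libraries of the same replicate number also have adjacent numbers in their library names. The labels state no pairing, and so few correlations cannot decide whether the numbers pair the libraries. With the replicate block 0 collagen genes were called in males, also without control replicate 3, and Col6a6 had limma adjusted p of 0.0526 and 0.0873. In females and for the difference the block gave 0.

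Genes with few reads, Col9a1, Col22a1 and Col6a4 among them, are too shallow here for a change to be detectable, and with 3 male controls a single library moves class medians across 0.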
